A study of Mus musculus with 56 samples.

Results

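The 10 genes described here, Wfdc2, Wfdc8, Wfdc9, Wfdc10, Wfdc13, Wfdc15b, Wfdc16, Eppin, Spint3 and Spint4, lie together on mouse chromosome 2 and encode small secreted proteins with protease inhibitor domains. They were chosen by name, as the WFDC, Eppin and Spint genes on a fixed list. All 10 were found among the 53379 genes of the deposited count table. Their expression was compared across 7 regions of the male reproductive tract and between 2 ages.

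Proteins of this kind carry either a WAP domain, named after whey acidic protein and held together by disulfide bonds, or a Kunitz domain, the fold of pancreatic trypsin inhibitor. Both fit into the active site of serine proteases and block them, and several WAP proteins also act against bacteria. The epididymal epithelium secretes many of these inhibitors in a region-specific order into the fluid in which sperm mature, and some of them coat the sperm surface. Eppin, which has a WAP and a Kunitz domain, is the best known, since it binds semenogelin on sperm and has been studied as a target for male contraception.

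The RNA came from C57BL/6 males of 3 months and of 21 months, with no treatment or genetic change in either group. For each age, 4 libraries were made from each of the testis (Te), efferent ductules (Ed), initial segment (Is), caput (Ca), corpus (Co) and cauda epididymidis (Cd) and the vas deferens (Dd), giving 56 libraries in 14 groups. Each age was represented by 4 mice, with every region taken from each of them. Each library held whole dissected tissue, so that fewer cells of a type and less RNA per cell cannot be told apart.

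The libraries held 11125279 to 20561967 counts, with a median of 16384049. A single non-coding gene, Gm42418, took 1.27% to 49.7% of them, and most in the 3-month caput library 2. Levels are given as CPM, counts relative to the TMM-scaled library total, over the 56 libraries, as mean ± SD of 4 libraries, and genes are compared with each other per kilobase of exon (RPKM). On fixed marker lists, 8 of 8 testis germ cell markers and 5 of 5 vas deferens markers were highest, by 3-month mean, where their list's name places them. So were 7 of 7 markers of each of the other 5 regions. The lists were chosen with earlier results of these data known, so these counts are not an independent test of the labels. The 3-month cauda library 3 stood apart, with a summed cauda marker level of 2416 CPM against 4618 to 5230 CPM in the other 3 libraries and a clear cell marker level of 274 CPM against 123 to 127 CPM.

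Of the 10 genes, 9 lay within 140.0 kb of chromosome 2 (GRCm38), from Wfdc2 to Spint4, together with 3 further protein-coding genes of the table. Wfdc2 (chr2:164562413-164568510, plus strand) came first, followed by Spint3 (chr2:164569695-164573459, minus strand) only 1184 bases away, Eppin (chr2:164588343-164593594, minus) and Wfdc8 (chr2:164596458-164613626, minus). Wfdc16 (chr2:164634707-164638796, minus), Wfdc9 (chr2:164649631-164656583, minus), Wfdc10 (chr2:164656046-164657368, plus), Wfdc13 (chr2:164685107-164687706, plus) and Spint4 (chr2:164698501-164702453, plus) completed the row. Wfdc15b (chr2:164214454-164221660, minus) lay 340752 bases before Wfdc2. Wfdc9 and Wfdc10 overlapped by 538 bases on opposite strands without a shared exon base. Exons of Wfdc8 shared 105 bases with exons of Wfdc6b on the opposite strand. The strand setting of the counting is not given in the sources used here, so reads from those 105 bases cannot be assigned to either gene.

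The sequences before the start sites of 5 members are shown because these members represent the main regional patterns below. Spint3 and Wfdc16 stand for the corpus, Wfdc15b for the cauda and Spint4 for the caput. Wfdc10 stands for a broad pattern, high from the initial segment to the cauda. Its highest mean was in the cauda, but its cauda and corpus libraries overlapped at both ages. Each sequence is the stretch of 250 bases that ends just before the RefSeq start (GRCm38.p6), read in the direction of transcription. Capitals mark motif matches. One motif is TGTTCT, a half-site shared by steroid hormone response elements. The other, searched on the gene's own strand, is the TATA box TATAAA. The coordinates are chr2:164573457-164573706 for Spint3 (minus strand), chr2:164638803-164639052 for Wfdc16 (minus), chr2:164221664-164221913 for Wfdc15b (minus), chr2:164655796-164656045 for Wfdc10 (plus) and chr2:164698251-164698500 for Spint4 (plus).
Spint3: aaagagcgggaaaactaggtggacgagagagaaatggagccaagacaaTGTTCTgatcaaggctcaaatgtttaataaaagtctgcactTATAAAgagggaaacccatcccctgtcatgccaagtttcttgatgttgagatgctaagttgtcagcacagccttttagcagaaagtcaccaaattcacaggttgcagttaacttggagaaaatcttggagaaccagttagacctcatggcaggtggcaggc
Wfdc16: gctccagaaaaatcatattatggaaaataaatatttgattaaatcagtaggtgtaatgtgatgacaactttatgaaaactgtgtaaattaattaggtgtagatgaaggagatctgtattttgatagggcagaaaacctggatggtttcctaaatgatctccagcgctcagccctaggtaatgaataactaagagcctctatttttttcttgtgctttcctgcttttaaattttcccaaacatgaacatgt
Wfdc15b: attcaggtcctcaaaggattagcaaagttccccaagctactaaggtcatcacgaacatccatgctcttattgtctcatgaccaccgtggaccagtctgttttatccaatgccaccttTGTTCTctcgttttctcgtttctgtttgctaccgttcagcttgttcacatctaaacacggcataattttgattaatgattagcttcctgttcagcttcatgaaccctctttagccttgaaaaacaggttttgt
Wfdc10: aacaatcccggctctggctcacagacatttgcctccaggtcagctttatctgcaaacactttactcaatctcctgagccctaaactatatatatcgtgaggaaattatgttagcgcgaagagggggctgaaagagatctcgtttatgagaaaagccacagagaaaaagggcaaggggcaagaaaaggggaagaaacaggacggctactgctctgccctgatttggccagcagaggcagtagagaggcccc
Spint4: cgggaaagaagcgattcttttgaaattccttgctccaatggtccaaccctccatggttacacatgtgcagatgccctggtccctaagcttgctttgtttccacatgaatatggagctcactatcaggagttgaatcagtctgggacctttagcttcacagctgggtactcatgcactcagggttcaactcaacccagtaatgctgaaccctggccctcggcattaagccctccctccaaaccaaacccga

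RefSeq promoters were found for 9 of the 10 members, the exception being Wfdc13. TGTTCT, searched on both strands, was present before Spint3 at position -202 and before Wfdc15b at position -133, counted back from the start, and in 16.2% of the windows of all 27025 genes. TATAAA was present before Spint3 at position -161 and, in 1 of 2 RefSeq starts, before Wfdc8 at position -246, against 8.12% of all genes. CCGGAAG, a core motif of ETS factors found in 7.05% of all genes on either strand, had no match before any of the 9. No match says only that these letters are absent from these windows. The GC content of the windows ran from 33.6% before Wfdc16 to 64.8% before Wfdc2, around a median of 52% for all genes, and the number of CpG dinucleotides from 1 to 14, around a median of 6.

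Transcripts of these inhibitors were low at the start of the tract, high along the epididymis and low again in the vas deferens. At 3 months the summed level of the 10 members was 48.3 ± 6.30 RPKM in the testis and 31.4 ± 4.5 RPKM in the efferent ductules. It reached 931 ± 198 RPKM in the initial segment, 2022 ± 218 RPKM in the caput, 5491 ± 590.3 RPKM in the corpus and 4232 ± 998 RPKM in the cauda, and was 159 ± 7.42 RPKM in the vas deferens (n = 4 each). The leading transcript per length differed between regions. It was Eppin in the testis, with 58.9% of the sum, Wfdc2 in the efferent ductules with 37.6%, and Wfdc10 in the initial segment with 68.3%. Wfdc10 also led in the caput with 47.0% and the corpus with 25.0%, and Wfdc15b led in the cauda with 38.3% and the vas deferens with 69.5%.

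**Figure D1:**
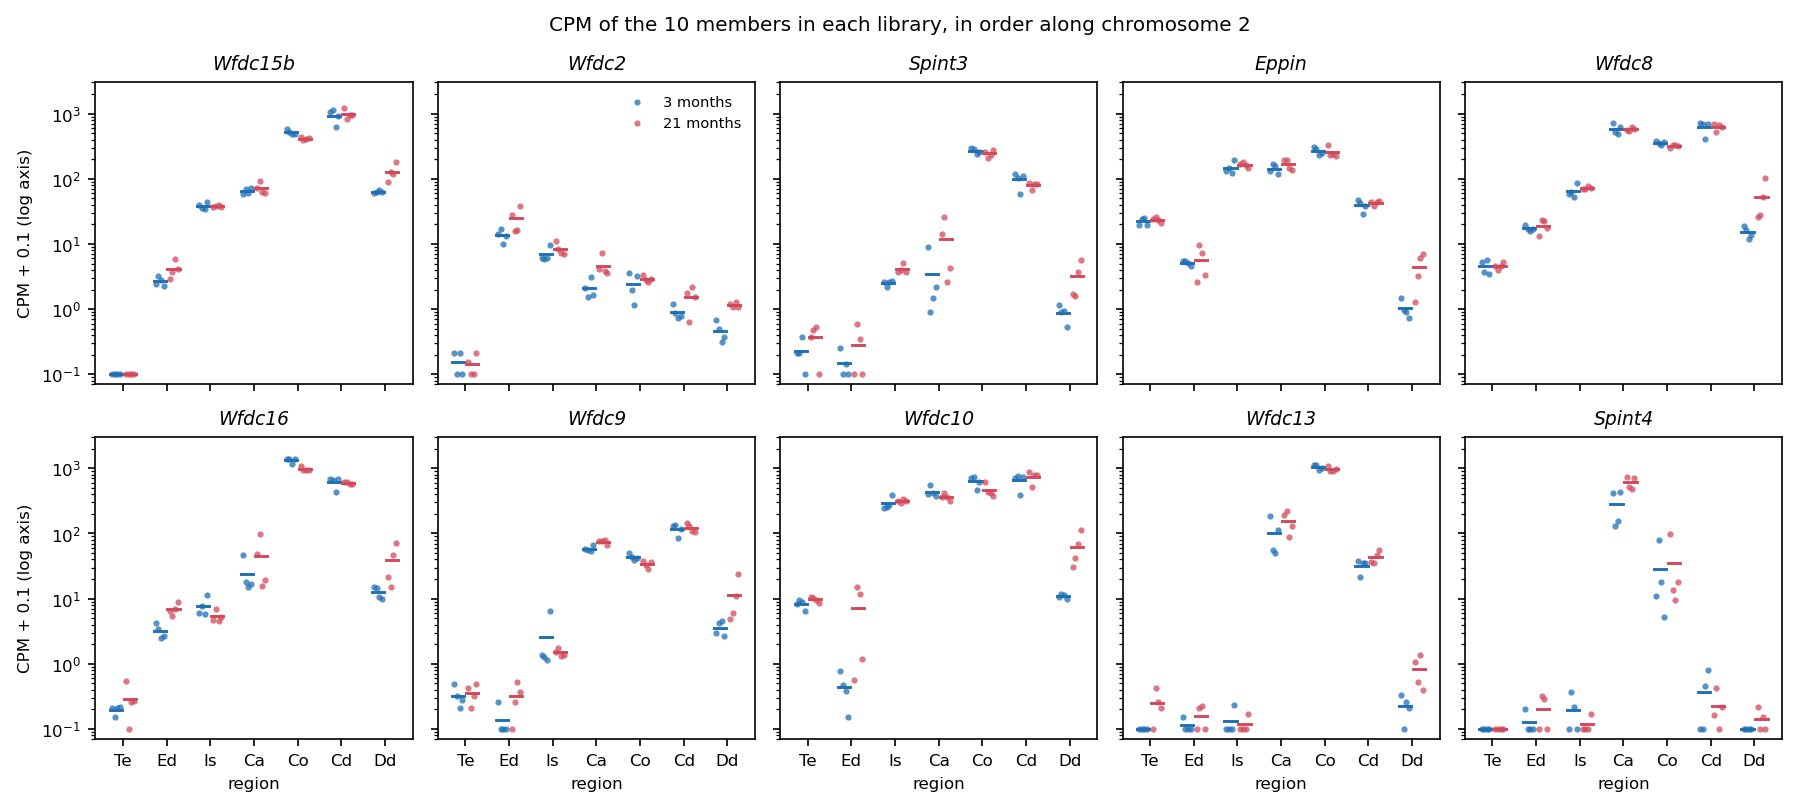
CPM of each member in each library (vertical log axis, CPM + 0.1, horizontal axis the 7 regions), with 1 dot a library, a line for the mean of 4 and blue for 3 months and red for 21 months. Wfdc2 is highest in the efferent ductules, Spint4 in the caput, 4 members in the corpus and 4 in the cauda, at both ages.

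The region with the highest mean was the same at both ages for 10 of 10 members. Of the 60 pairs of regions next to each other in a member's 3-month order, 40 differed at an adjusted p under 0.05 in the fit of all 28 libraries of that age. The highest and the second region differed for 8 of 10 members, Wfdc8 and Wfdc10 being the exceptions. The pairs were chosen by the order of means in the same libraries, so these counts only describe that order. Between anatomical neighbours, 24.4% to 75.6% of all genes were called at this threshold.

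Among the members with a WAP domain alone, Wfdc2, known in humans as an epididymal secretory protein and as a serum marker of ovarian cancer, had a pattern unlike the others. Its 3-month CPM in the efferent ductules were 14.3, 16.9, 9.78 and 12.9, and in the initial segment 5.95, 5.74, 5.99 and 9.60. The efferent ductules lay above the initial segment in all 4 libraries, 13.5 ± 2.95 against 6.82 ± 1.86 CPM (adjusted p = 0.00483). It then stood at 2.0 ± 0.714 CPM in the caput, 2.37 ± 1.10 CPM in the corpus, 0.794 ± 0.207 CPM in the cauda, and its vas deferens level was 0.365 ± 0.164 CPM. The difference between caput and corpus did not pass (adjusted p = 0.740). The testis held 4 counts over 4 libraries. At 11.8 ± 2.59 RPKM in its highest region, Wfdc2 was the lowest of the 10 at their peaks.

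Wfdc9 and Wfdc10, neighbours that encode small WAP proteins and point in opposite directions, shared a high cauda level and parted in the initial segment. Wfdc9 stood at 128, 136, 86.1 and 119 CPM in the 3-month cauda libraries and at 58.1, 56, 53.3 and 66.5 CPM in those of the caput, which did not overlap (adjusted p = 0.00308). Its corpus level was 43.7 ± 4.96 CPM. Every corpus library (38.7 to 50.3 CPM) lay below every caput library, but the difference did not pass (adjusted p = 0.267). In the cauda Wfdc10 read 709, 767, 388 and 736 CPM, and corpus libraries read 699, 730.2, 472 and 622 CPM. Those 2 regions overlapped and their difference did not pass (adjusted p = 0.998), and the caput, at 436 ± 75.6 CPM, lay below the corpus (adjusted p = 0.0243).

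In the initial segment Wfdc10 already stood at 242, 259, 278 and 388 CPM, while Wfdc9 stood at 1.28, 1.19, 1.06 and 6.29 CPM. Per length this was 635 RPKM for Wfdc10 and 4.49 RPKM for Wfdc9. Library 4, the high one for Wfdc9, also had the highest summed level of caput markers, 783 CPM against 160.1 to 363 CPM in the other 3, and the part of those markers in the value was not tested. From the efferent ductules to the initial segment, Wfdc10 was higher by 9.73 ± 0.32 (log2 difference ± SE, adjusted p = 1.38e-20), from 0.346 ± 0.262 to 292 ± 65.8 CPM. Wfdc10 was also detected in the testis, at 8.20 ± 1.31 CPM.

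Wfdc13 and Wfdc16, also small WAP proteins, were highest in the corpus. Wfdc13 measured 1107, 1104, 939 and 1006 CPM in the 3-month corpus and 185, 55.9, 49.4 and 112 CPM in the caput, where the libraries varied more than 3-fold. The corpus was 10.4-fold above the caput (adjusted p = 3.49e-10) and made up 88.7% of the sum of the 7 regional means. Against the testis, with 0 counts in 4 libraries, the corpus was at least 24679-fold higher, counting 3 reads over the testis libraries as the floor. The initial segment and the efferent ductules held 2 and 1 counts over their 4 libraries.

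Wfdc16 measured 1366, 1396, 1152 and 1385 CPM in the corpus, 679, 655, 427 and 684 CPM in the cauda, against 46.9, 18.2, 15.0 and 16.4 CPM for the caput. The corpus lay above the cauda in all libraries, by 2.17-fold (adjusted p = 8.70e-04), and the cauda above the caput (adjusted p = 6.43e-14). The step from caput to corpus, a log2 difference of 5.76 ± 0.30, was much steeper than the next. Per length the corpus level was 1187 ± 104 RPKM for Wfdc16 and 967 ± 76.1 RPKM for Wfdc13.

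Wfdc15b, the WAP gene that lies apart from the rest, was highest in the cauda, with 1046, 1117, 616 and 931 CPM at 3 months. The corpus libraries, at 582, 524, 488 and 487 CPM, lay below each of these (adjusted p = 1.39e-05). The low cauda value came from library 3, which also had the fewest cauda markers. Caput and vas deferens, at 64.8 ± 7.03 and 63.0 ± 3.02 CPM, were not separated by the test (adjusted p = 0.640). The 8 testis libraries held 0 counts of Wfdc15b, which allows up to 0.0421 CPM in the 3-month testis. Its paralog Wfdc15a showed the reverse, with 35.1 CPM in the 3-month testis and 0.773 CPM in the cauda. At 1622 ± 387 RPKM in the cauda, Wfdc15b was the highest of the 10 at their peaks.

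**Figure D2:**
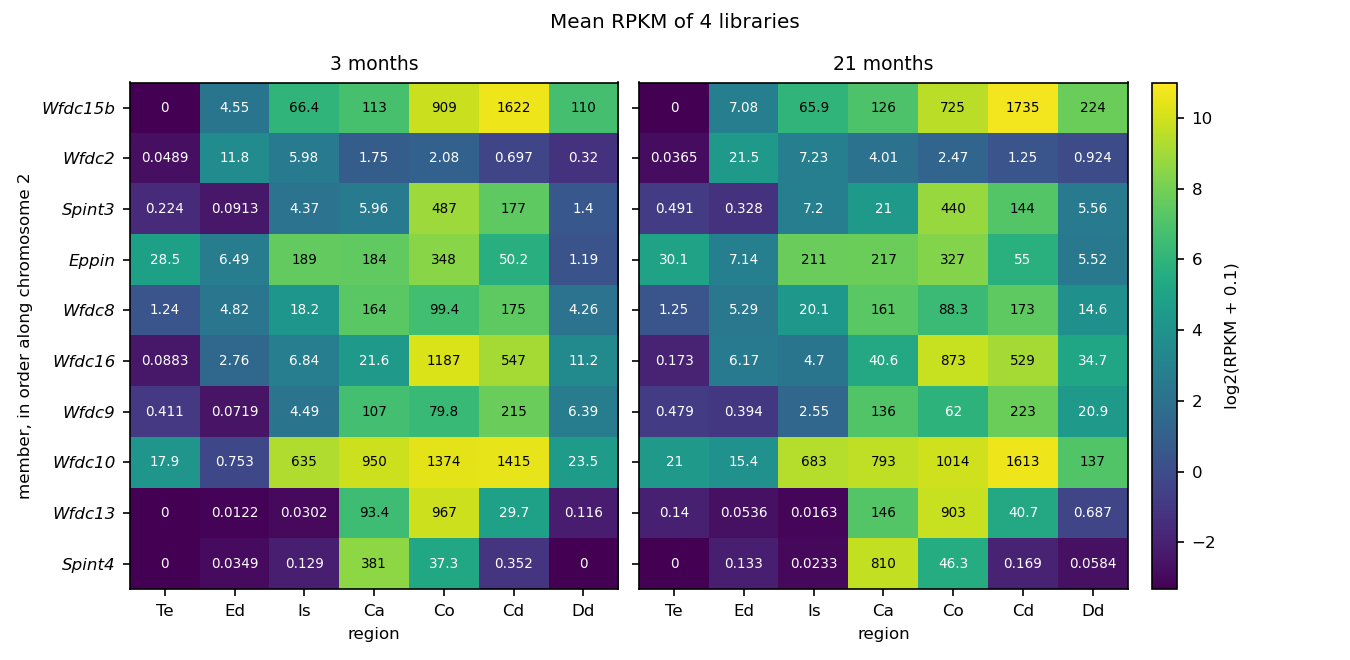
Mean RPKM of 4 libraries for each member (rows, in chromosomal order) and region (columns) at 3 and 21 months, with the value in each cell and log2(RPKM + 0.1) as colour. Wfdc15b reaches 1622 RPKM in the 3-month cauda and Wfdc10 1415 RPKM, while Wfdc2 stays at 11.8 RPKM or below at that age.

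Eppin and Wfdc8 combine WAP with Kunitz domains. Eppin was highest in the corpus, at 312, 289, 231 and 249.7 CPM at 3 months. The initial segment, at 131, 145, 121 and 191 CPM, and the caput, at 133, 166, 156 and 117 CPM, followed. Every corpus library was above every library of those regions (adjusted p = 1.19e-05 against the initial segment), and the difference between initial segment and caput did not pass (adjusted p = 0.813). The cauda was lower than the corpus by a log2 difference of -2.80 ± 0.16 (adjusted p = 1.60e-14), at 39.1 ± 7.45 CPM. Among the 10 members Eppin had the highest testis level, at 22.1 ± 2.79 CPM or 28.5 RPKM, and the vas deferens was its lowest region with 0.923 ± 0.325 CPM.

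Wfdc8 had 2 high regions with a lower one between them. Its 3-month CPM were 722, 517, 485 and 628 in the caput and 719, 693, 411 and 687 in the cauda, while those of the corpus were 374, 359, 329 and 361. The corpus lay below all 4 libraries of each neighbour, by a log2 difference of -0.71 ± 0.17 from the caput (adjusted p = 0.00146) and the cauda lay above the corpus by 0.81 ± 0.17 (adjusted p = 5.57e-04). The difference between caput and cauda did not pass (adjusted p = 0.709). The 105 bases shared with Wfdc6b are part of an exon length of 3580 bases. Wfdc6b itself stood at 125 CPM in the caput, 116 CPM in the corpus and 301 CPM in the cauda, with the cauda, caput and corpus in the same order as for Wfdc8.

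Spint3 and Spint4 encode Kunitz inhibitors without a WAP domain, and they were highest in different regions. Spint3 measured 297, 283, 244 and 260.0 CPM in the 3-month corpus. Its cauda libraries read 120.2, 103, 58.4 and 112 CPM, and its caput libraries 9.01, 0.796, 1.36 and 2.12 CPM. The corpus was 2.75-fold above the cauda (adjusted p = 3.32e-04), and the cauda was above the caput in every library (adjusted p = 1.00e-11). Spint4 measured 417, 132, 156 and 439 CPM in the caput and 10.9, 78.4, 17.7 and 5.10 CPM in the corpus. Caput and corpus did not overlap (adjusted p = 4.61e-05), and the caput held 91.0% of the sum of its regional means.

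For Spint4 the spread between libraries was wide. The 3-month caput libraries 1 and 4 were more than 2 times as high as libraries 2 and 3, and corpus library 2 stood at more than 4 times the next. In the cauda 19 counts were found over 4 libraries, and in the testis and vas deferens 0. The step from corpus to cauda was a log2 difference of -6.68 ± 0.89 (adjusted p = 2.76e-06). Against the vas deferens, at the floor of 3 counts over 4 libraries, the caput was at least 6659-fold higher.

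**Figure D3:**
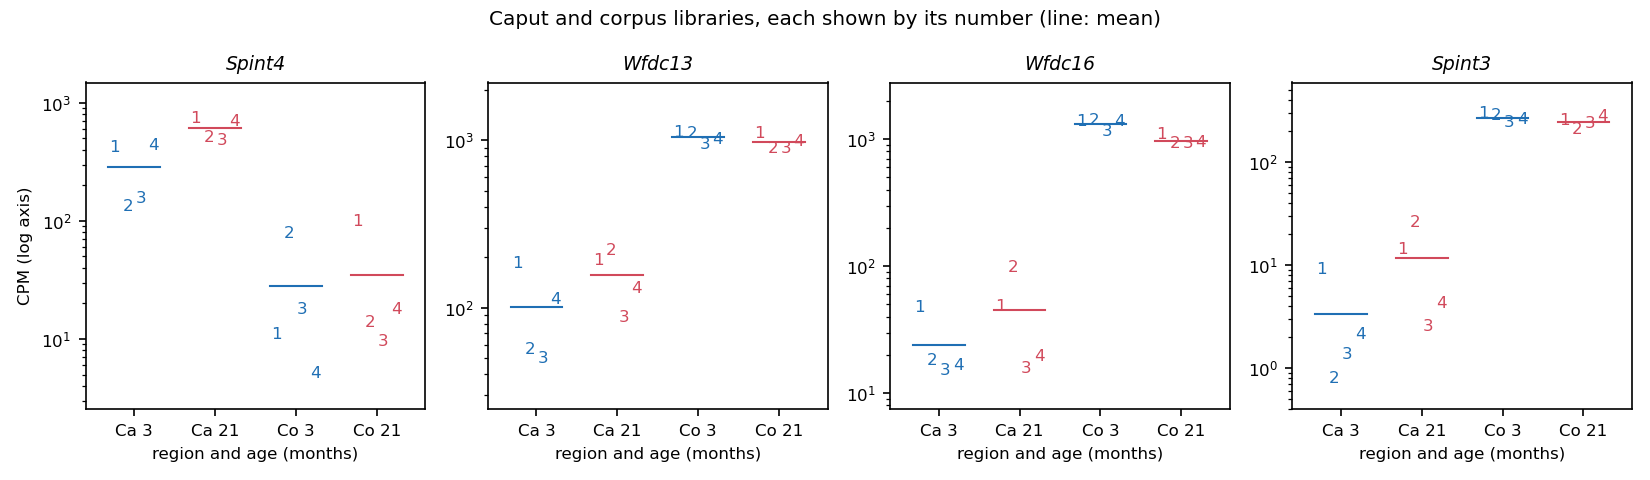
CPM of Spint4, Wfdc13, Wfdc16 and Spint3 in the caput and corpus libraries (vertical log axis), each library drawn as its number, with a line for the mean, blue for 3 and red for 21 months. Spint4 is higher in each caput library, 132 to 744 CPM, than in each corpus library, and the other 3 are higher in the corpus.

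Counted along the tract at 3 months, members differed at most borders between neighbouring regions, as many genes did. From testis to efferent ductules 4 members were higher and 2 lower of 10, in a comparison in which 75.6% of 34475 genes were called. From efferent ductules to initial segment 7 were higher and 1, Wfdc2, was lower (43.4% of genes called), with a median log2 difference of 2.91 against -0.06 for all genes. From initial segment to caput 7 were higher and Wfdc2 was again lower (27.8% called). From caput to corpus 6 were higher and Wfdc8 and Spint4 were lower (33.5% called). Beyond that point the balance turned. From corpus to cauda Wfdc8, Wfdc9 and Wfdc15b were higher and 6 members were lower (24.4% called). From cauda to vas deferens 0 were higher and 9 were lower (36.4% called), with a median log2 difference of -5.45 against -0.03 for all genes. Spint4, near 0 in both regions, was the member that did not pass there (adjusted p = 0.279).

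The other genes of the locus, on a fixed list of 15, did not all share this course. From testis to efferent ductules 2 were higher and 9 lower (75.6% of all genes called). Wfdc15a was lower by a log2 difference of -7.38 and Slpi, an inhibitor of neutrophil elastase, higher by 7.25. From efferent ductules to initial segment 3 were higher and 2 lower (43.4% of all genes called), led by Wfdc6a with 7.72 (adjusted p = 5.74e-18). From cauda to vas deferens 1 was higher and 11 lower (36.4% of all genes called), with Wfdc6a at -6.62. Of 8 Kunitz genes outside the locus, 7 were higher in the efferent ductules than in the testis, where 75.6% of all genes were called. Tfpi2, tissue factor pathway inhibitor 2, was first at 7.0. From cauda to vas deferens 3 of the 8 were higher and 3 lower, with a median log2 difference of -0.18. Of the 6 WAP genes outside the locus, 5 were higher in the efferent ductules than in the testis (median 1.91) and 5 were lower in the initial segment than in the efferent ductules (median -0.87). From cauda to vas deferens 2 of the 6 were lower, with a median of -0.49.

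Serine proteases, the enzymes that such inhibitors block, moved in both directions. Of 13 on the list, 6 were higher and 5 lower from testis to efferent ductules (75.6% of all genes called). Prss8, the membrane protease prostasin, had a log2 difference of 9.16 and the testis gene Prss37 one of -9.76. From caput to corpus 4 of the 13 were higher and 2 lower (33.5% of all genes called). There the plasma protease Hgfac fell by 4.56 on the log2 scale (adjusted p = 6.88e-12). Of the proteins known to bind Eppin, Ltf, lactotransferrin, stood at 1365 CPM in the 3-month corpus and 2.87 CPM in the caput, a log2 difference of 8.77 ± 0.46 (adjusted p = 1.14e-15). Clu, the chaperone clusterin, stood at 16148 CPM in the caput and 194 CPM in the corpus (log2 difference -6.36 ± 0.39, adjusted p = 4.13e-14). Eppin itself was 143 ± 21.8 CPM in the caput and 271 ± 36.8 CPM in the corpus.

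Across the 56 libraries the members followed each other to different degrees, measured by Pearson's r of log2(CPM + 1), in which the regional pattern shared by all libraries of a region weighs most. Wfdc16 and Spint3, 61.2 kb apart, were the most alike (r = 0.95), followed by Wfdc8 with Wfdc9 (r = 0.93) and Wfdc15b with Wfdc16, 413 kb apart (r = 0.92). Spint3 and Spint4 had r = 0.30. Wfdc9 and Wfdc10, whose gene bodies overlap, had r = 0.81, while Wfdc2 and Spint3, 1.18 kb apart, had r = -0.13, and the lowest value was that of Wfdc2 and Wfdc9 (r = -0.24).

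Likeness was sought among 19661 genes with a mean of at least 1 CPM, and the share of chromosome 2 among them was not counted. Those most like each member were on other chromosomes except for Lcn12, Wfdc6b, Ggta1, Clic3 and Spint5 (n = 56 libraries, r as a description). For Wfdc2 they were Slc39a4 (r = 0.95), a zinc transporter, Rph3al and Gm42723. For Wfdc8 they were Lcn12 (r = 0.98), a lipocalin of chromosome 2, Enpp1 and Pip5k1b. Wfdc9 was nearest to Wfdc6b (r = 0.99), a WAP gene of the same locus, then Ces5a and Gm34701, and Wfdc10 to Rasgrf1 (r = 0.98), Rnase12 and Pgap2. Wfdc13 was nearest to Pate2 (r = 0.98), Zfp275 and Phgdh, Wfdc15b to Cd52 (r = 0.98), a surface glycoprotein that sperm acquire in the epididymis, Ocrl and Spink10, and Wfdc16 to Ggta1 (r = 0.97), Clic3 and Magee1. For Eppin the nearest were Fgf12 (r = 0.94), Panx2 and Atp6v1g1, for Spint3 the beta-defensin Defb38 (r = 0.97), Slc7a4 and Gm38237, and for Spint4 Spint5 (r = 0.97), Gm48620 and 5033403H07Rik. Spint5 is a Kunitz gene that follows Spint4 on chromosome 2, and how reads shared by similar genes were counted is not given in the sources used here. The choice of the nearest genes depended on the measure, and 7 of these 30 were chosen with Spearman's correlation.

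The comparison of 21-month-old with 3-month-old mice asked in which regions the members differed with age. In the vas deferens 9 members were tested and all 9 were higher at 21 months at an adjusted p under 0.05 (edgeR quasi-likelihood test), where 11.4% of all genes were called higher, 8.47% lower and 19.9% in either direction. Their median log2 difference was 1.78, against 0.02 for all genes. Spint4, with 0 and 3 counts over the 4 libraries of each age, had too few counts to be tested. In the other regions 0 to 2 members were called.

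**Figure D4:**
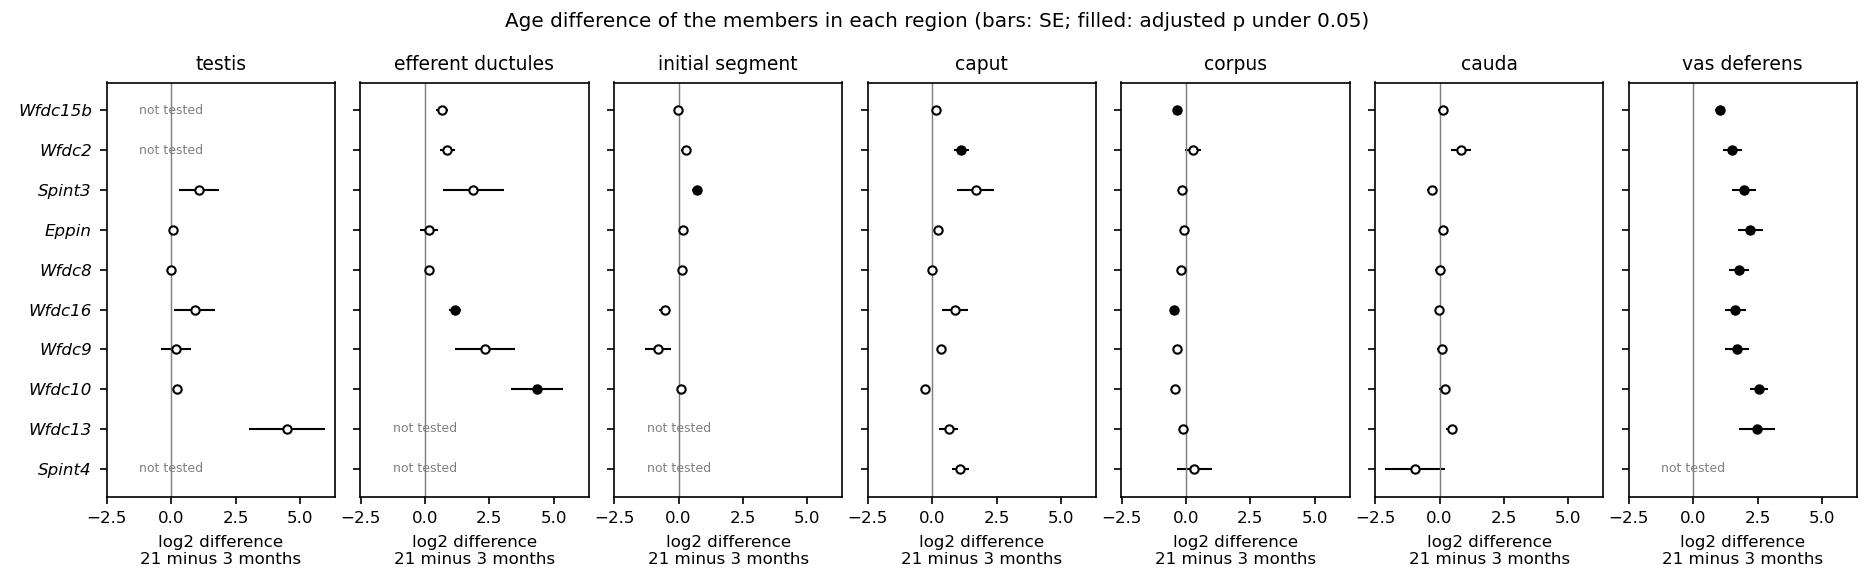
Log2 difference between 21 and 3 months (horizontal axis, edgeR) for each member (rows) in each region (panels), with bars for 1 SE and filled points for an adjusted p under 0.05. In the vas deferens 9 points are filled and right of 0, and elsewhere at most 2 are filled in a panel.

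The vas deferens libraries showed this difference gene by gene. Wfdc10 measured 10.6, 11.5, 11.4 and 9.65 CPM at 3 months and 30.8, 42.1, 68.1 and 111 CPM at 21 months, without overlap, a log2 difference of 2.55 ± 0.34 (adjusted p = 0.00114). Wfdc15b, the member with the highest vas deferens level, measured 60.8, 61.7, 67.5 and 62.1 CPM at 3 months and 88.4, 127, 118 and 179 CPM at 21 months, a log2 difference of 1.02 ± 0.17 (adjusted p = 0.00314). The young libraries of both genes lay close together, and the old ones were spread more than 2-fold.

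Of the 2 members with WAP and Kunitz domains, Wfdc8 measured 19.0, 16.5, 11.6 and 13.8 CPM at 3 months and 25.8, 28.1, 51.6 and 104 CPM at 21 months (log2 difference 1.78 ± 0.40, adjusted p = 0.0112). Eppin measured 1.39, 0.872, 0.789 and 0.643 CPM against 1.21, 3.10, 5.95 and 6.92 CPM (log2 difference 2.21 ± 0.49, adjusted p = 0.0107). Library 1 of the old mice overlapped with the young ones for Eppin but not for Wfdc8. The Kunitz gene Spint3 measured 1.04, 0.805, 0.841 and 0.429 CPM against 1.63, 1.49, 3.66 and 5.60 CPM (log2 difference 1.98 ± 0.46, adjusted p = 0.0137).

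Among the other WAP genes, Wfdc9 measured 2.84, 4.16, 4.42 and 2.57 CPM against 4.84, 5.92, 10.9 and 24.1 CPM (log2 difference 1.71 ± 0.46, adjusted p = 0.0255). Wfdc16 measured 15.1, 14.6, 10.5 and 9.76 CPM against 21.6, 14.7, 46.4 and 72.0 CPM (log2 difference 1.64 ± 0.42, adjusted p = 0.0208), with old library 2 inside the young range. Wfdc2 and Wfdc13 had the lowest levels. Wfdc2 was 0.365 ± 0.164 CPM against 1.05 ± 0.115 CPM (log2 difference 1.52 ± 0.37, adjusted p = 0.0159), and Wfdc13 was 0.124 ± 0.0972 CPM against 0.738 ± 0.450 CPM (2.47 ± 0.69, adjusted p = 0.0298), from 9 and 52 counts. For 7 of the 9 every old library was above every young one, and the ages were likewise separate for 25% of all genes tested.

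For 7 of the 9 members the highest old library was library 4, and the markers of the cauda and corpus were highest in it too. The 7 cauda markers summed to 94.0 to 180.4 CPM at 3 months and to 174, 296, 324 and 548 CPM at 21 months, and 7 of 7 were called higher. The 7 corpus markers summed to 125, 204, 161 and 112 CPM and to 214, 341, 434 and 766 CPM, and 2 of the 5 tested were called higher. None of these 14 markers was at 0 throughout the 8 libraries. The 5 vas deferens markers were lower at 21 months, at 13978 to 23695 CPM against 28044 to 30816.5 CPM, and 3 of 5 were called lower. Their part in the members' difference was not tested.

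Further marker lists were higher there too. The 6 seminal vesicle markers summed to 1.88 to 4.11 CPM at 3 months and 12.8 to 2041 CPM at 21 months, with 4 of the 4 tested called higher and 1 of the 6 at 0 throughout. The 6 T cell markers were 3.32 ± 0.736 CPM against 23.3 ± 12.7 CPM, and 6 of 6 were called higher. The 5 smooth muscle markers, at their highest in the vas deferens among the 7 regions, were 11503 ± 341 CPM against 15897 ± 2451 CPM, and 4 of 5 were called higher. The part of these in the members' difference was not tested either.

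Without the 21-month vas deferens libraries 3 and 4, those with the most cauda markers, 5 of the 9 members kept the call, a check chosen after seeing the data. Wfdc10 then had a log2 difference of 1.74 ± 0.13 (adjusted p = 9.19e-06), Wfdc8 0.81 ± 0.16 and Wfdc15b 0.75 ± 0.11, and Wfdc2 and Wfdc13 also passed. Wfdc9, Wfdc16, Eppin and Spint3 had differences of 0.61, 0.53, 1.21 and 0.99 and did not pass (adjusted p from 0.0521 to 0.0982). Of the fits that each left out 1 library, 5 of 8 lost the call of Wfdc13 (adjusted p up to 0.0816), 4 that of Wfdc9 (up to 0.0796), 2 that of Wfdc16 (up to 0.0684) and 1 that of Wfdc2 (0.0523). The calls of Wfdc8, Wfdc10, Wfdc15b, Eppin and Spint3 were kept in all 8. Wfdc9 was lost without any 1 of the 3-month libraries, and Wfdc13 without the 3-month library 2, 3 or 4 or the 21-month library 1 or 3. Wfdc16 was lost without the 3-month library 3 or 4 and Wfdc2 without the 3-month library 4, which left 5 members. Without the 21-month library 4 the log2 difference of Wfdc9 was 1.04, with the call kept. The log2 differences of Wfdc8, Wfdc9, Wfdc16, Eppin and Spint3 were each more than 1.5 times smaller without those 2 old libraries.

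**Figure D5:**
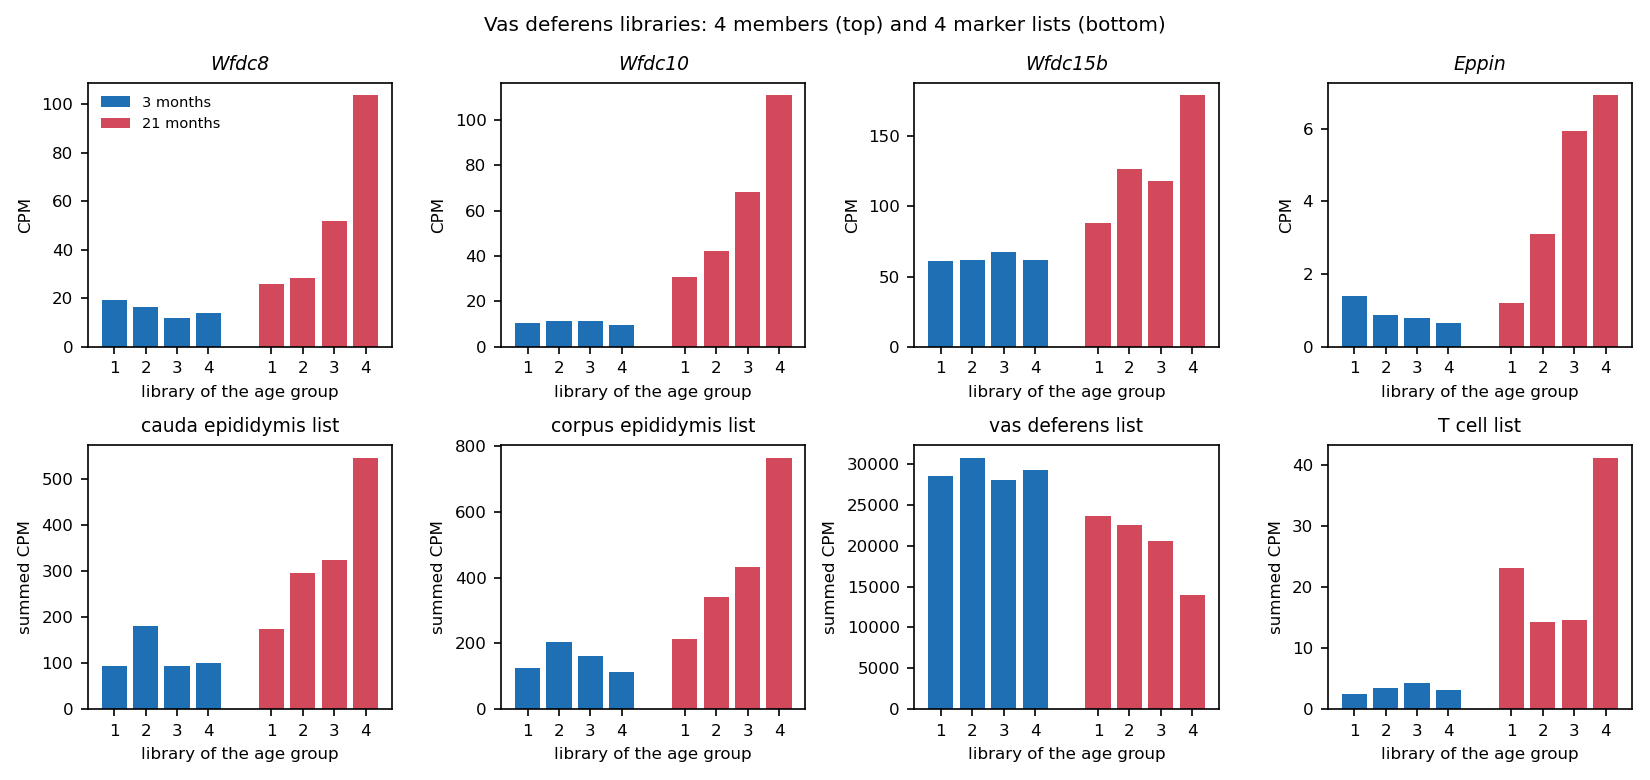
Vas deferens libraries 1 to 4 of each age (horizontal axis, blue for 3 and red for 21 months), with CPM of Wfdc8, Wfdc10, Wfdc15b and Eppin on top and the summed CPM of the cauda, corpus, vas deferens and T cell marker lists below. The 21-month library 4 has the highest bar for the 4 members, at 104 CPM for Wfdc8, and for the cauda, corpus and T cell lists, and the lowest for the vas deferens list.

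In the efferent ductules Wfdc10 and Wfdc16 were higher at 21 months, 2 of 8 members tested where 4% of genes were called higher and 6.99% in either direction. Wfdc16 measured 4.09, 3.30, 2.35 and 2.60 CPM at 3 months and 6.30, 5.39, 6.92 and 8.92 CPM at 21 months, without overlap (log2 difference 1.17 ± 0.23, adjusted p = 0.0181). Wfdc10 measured 0.682, 0.372, 0.277 and 0.0510 CPM at 3 months and 0.457, 15.2, 11.5 and 1.09 CPM at 21 months (log2 difference 4.36 ± 1.01, adjusted p = 0.0301). Its mean at 21 months rested on libraries 2 and 3. The 7 caput markers summed to 13.5 and 12.1 CPM in those libraries and to 1.92 and 2.82 CPM in libraries 1 and 4, against 3.78 to 8.34 CPM at 3 months, and their part in the value was not tested. Without libraries 2 and 3, a check chosen after seeing the data, Wfdc10 had a difference of 1.21 ± 0.75 (adjusted p = 0.270) and Wfdc16 one of 1.36 ± 0.25 (adjusted p = 0.00212). The 7 initial segment markers, from the region where Wfdc10 stood at 292 CPM at 3 months, summed to 485 to 679 CPM at 3 months and to 819, 1465, 936 and 916 CPM in the 21-month libraries 1 to 4, the same order of libraries as for Wfdc10. Of these markers 5 of 7 were called higher, with a median log2 difference of 7.46 over the 7, and their part in the value was not tested. The 7 cauda markers summed to 98.0 ± 6.95 CPM against 152 ± 24.6 CPM, with 1 of the 5 tested called higher, and were highest in the 21-month library 4 (189 CPM), the library highest for Wfdc16. T cell markers were 2.03 ± 0.270 CPM against 7.89 ± 2.05 CPM with 4 of 6 called higher, and clear cell markers 3.51 ± 0.508 CPM against 8.62 ± 2.02 CPM with 1 of 5 called higher. The ages did not overlap in any of these 3 sums. The libraries also differed in that Gm42418 took 1.27% to 3.29% of counts at 3 months and 4.93% to 22.2% at 21 months, and the 21-month libraries 1 and 4 had the lowest totals of the 56, 11442133 and 11125279 counts. The part of these in the members' differences was not tested. The Wfdc10 call was lost in 6 of 8 fits that each left out 1 library (adjusted p up to 0.107), those without any 1 of the 3-month libraries or without the 21-month library 2 or 3, and the Wfdc16 call in 2, those without the 3-month library 3 or 4 (adjusted p up to 0.0730). Without the 3-month library 3 or 4, 0 members passed, and without the 3-month library 1 or 2 or the 21-month library 3, 1 passed.

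In the initial segment Spint3 was higher at 21 months, 1 of 8 members tested where 3.35% of genes were called higher and 6.36% in either direction. It measured 2.55, 2.06, 2.52 and 2.59 CPM against 3.59, 3.81, 5.01 and 3.63 CPM, without overlap (log2 difference 0.72 ± 0.19, adjusted p = 0.0430). That call was lost in 7 of 8 fits that each left out 1 library, with an adjusted p of up to 0.121. Without the 3-month library 1, 2 or 3 or the 21-month library 2, 3 or 4, 0 members passed, and without the 3-month library 4 the call of Spint3 was lost while 2 other members passed. Of the leading members of the region, Wfdc10 had a log2 difference of 0.10 ± 0.12 and Eppin one of 0.16 ± 0.12, and neither passed. Among the marker lists of the region, 8 of 8 testis germ cell markers were called lower at 21 months, with a sum of 39.1 to 119 CPM at 3 months and 13.7 to 32.7 CPM at 21 months. Of 6 T cell markers 2 were called higher (3.68 ± 0.112 against 6.80 ± 1.24 CPM), and of 5 smooth muscle markers 2 were called lower (821 ± 189 against 592 ± 32.9 CPM). The corpus markers, from the region where Spint3 was highest, summed to 1124 ± 315 CPM against 1352 ± 24.1 CPM, with overlap. Of these, 1 of 7 was called higher. None of the markers of these 4 lists was at 0 throughout, and their part in the Spint3 value was not tested.

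In the caput Wfdc2 was higher at 21 months, 1 of 10 members tested where 3.09% of genes were called higher and 8.14% in either direction. It measured 2.02, 1.43, 3.00 and 1.54 CPM against 3.96, 7.11, 3.68 and 3.51 CPM, without overlap (log2 difference 1.13 ± 0.29, adjusted p = 0.0341). Spint4, at 417, 132, 156 and 439 CPM against 744, 510.0, 482 and 699 CPM, did not overlap either but did not pass (log2 difference 1.09 ± 0.33, adjusted p = 0.0594). T cell markers were 2.53 ± 0.869 CPM at 3 months and 8.57 ± 2.39 CPM at 21 months with 3 of 6 called higher. Sertoli cell markers were 99.3 ± 14.8 CPM against 65.2 ± 7.56 CPM with 1 of the 5 tested called lower, testis germ cell markers 174 ± 27.9 CPM against 127 ± 6.14 CPM with 2 of 8 called lower, and smooth muscle markers 1109 ± 171 CPM against 698 ± 32 CPM with 5 of 5 called lower. The ages did not overlap in these 4 sums, and their part in the Wfdc2 value was not tested. The Wfdc2 call was lost in 6 of 8 fits that each left out 1 library (adjusted p up to 0.104). Without the 3-month caput library 1, 5 members passed, and without the 3-month library 4, 2. Without the 3-month library 2, the one in which Gm42418 took 49.7% of counts, or without any 1 of the 4 libraries of old mice, 0 did.

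The caput libraries of each age also differed among themselves for Spint3 and Wfdc16, which were highest in the corpus. Eppin, also highest in the corpus, varied less. Its highest caput library was 1.41 times the lowest at 3 months and 1.43 times at 21 months. Spint3 measured 9.01 CPM in the 3-month library 1 against 0.796 to 2.12 CPM in the others, and 14.2, 25.8, 2.50 and 4.23 CPM at 21 months. Wfdc16 showed the same libraries on top, with 46.9 CPM against 15.0 to 18.2 CPM at 3 months and 48.3 and 97.7 CPM against 15.8 and 19.4 CPM at 21 months. Neither passed the adjusted threshold for age, with log2 differences of 1.68 ± 0.71 for Spint3 (adjusted p = 0.159) and 0.89 ± 0.51 for Wfdc16 (adjusted p = 0.307), and Spint3 passed at an unadjusted threshold of 0.05. The corpus markers in the caput summed to 1858 to 2526 CPM at 3 months and 2365 to 3170 CPM at 21 months, and were highest in the 21-month library 2, the library highest for both genes. At 3 months library 1, the high one for both genes, had 2175 CPM of corpus markers, below libraries 3 and 4 with 2258 and 2526 CPM. The cauda markers in the caput were highest in the libraries highest for both genes, at 906 CPM in the 3-month library 1 against 664 to 728 CPM in the others, and at 792 and 913 CPM in the 21-month libraries 1 and 2 against 651 and 576 CPM. The vas deferens markers were also highest in the 3-month library 1, at 236 CPM against 145 to 169 CPM. The part of these markers in the values was not tested.

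In the corpus Wfdc15b and Wfdc16 were lower at 21 months, 2 of 10 members tested where 1.47% of genes were called lower and 2.97% in either direction. Wfdc16 measured 1366, 1396, 1152 and 1385 CPM at 3 months and 1097, 931, 932 and 937 CPM at 21 months, without overlap, and fell by 0.45 ± 0.10 on the log2 scale (adjusted p = 0.0193). Wfdc15b measured 582, 524, 488 and 487 CPM and 433, 397, 413 and 415 CPM, also without overlap (log2 difference -0.33 ± 0.09, adjusted p = 0.0486). Wfdc13, with the second highest corpus CPM at 3 months, differed by -0.10 ± 0.10 and did not pass. The 7 corpus markers summed to 9820 to 12293 CPM at 3 months and 8268 to 10133 CPM at 21 months, with 3 of 7 called lower. Clear cell markers were 125 ± 7.27 CPM against 105 ± 7.03 CPM with 1 of 5 called lower, and T cell markers 3.95 ± 0.550 CPM against 8.17 ± 2.03 CPM with 0 of 6 called, both without overlap. The part of these lists in the members' difference was not tested. Both calls were also lost in the fit of all 56 libraries (adjusted p = 0.505 for Wfdc15b and 0.713 for Wfdc16) and with library size alone as the scaling (0.287 and 0.160), and that of Wfdc15b with DESeq2 size factors (0.0588) and without Gm42418 (0.0612). The Wfdc15b call was lost in 7 of 8 fits that each left out 1 library, all but that without the 3-month library 4 (adjusted p up to 0.178), and the Wfdc16 call in 4 (up to 0.0928). Without the 3-month library 2 or the 21-month library 2, 3 or 4, 0 members passed, and without the 3-month library 1 or 3, 1 did.

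In the testis and the cauda 0 members were called at the adjusted threshold, of 7 and 10 tested, where 0.563% and 0.128% of genes passed. Wfdc13 alone passed in the testis when p was left unadjusted, with 0 counts at 3 months and 11 at 21 months, at least 3.57-fold higher over the floor of 3 counts. In the cauda 0 members passed even at an unadjusted threshold of 0.05. The largest cauda levels were close at the 2 ages, 928 ± 221 against 992 ± 165 CPM for Wfdc15b and 649.7 ± 176 against 741 ± 153 CPM for Wfdc10. For Wfdc8 the difference was -0.00 ± 0.18 on the log2 scale. The 3-month library 3 was lowest of its group for both Wfdc15b and Wfdc10, and DESeq2 also called 0 members in these 2 regions.

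Whether the age difference itself varied among regions was tested with the interaction of age and region in 1 fit of the 56 libraries. It passed for 7 of 10 members, where 20.2% of 36977 genes passed. The strongest were Wfdc10 (adjusted p = 4.60e-07), Wfdc8 (1.12e-04) and Wfdc15b (3.49e-04), followed by Eppin (0.00129), Wfdc9 (0.00196), Wfdc16 (0.00349) and Spint3 (0.0275). Wfdc2, Wfdc13 and Spint4 did not pass (adjusted p = 0.179, 0.0793 and 0.891). Without the 21-month vas deferens libraries 3 and 4, 3 members passed, Wfdc10, Wfdc15b and Wfdc16, and without the libraries numbered 4 in all groups 2 passed.

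The other genes of the locus and of the pathway gave the setting of these age differences. In the vas deferens 6 of 10 tested locus genes were higher at 21 months and 1 was lower, where 11.4% of all genes were called higher and 8.47% lower. The higher ones were led by the seminal vesicle secretory genes Svs5 (log2 difference 10.30 ± 1.78) and Svs2 (9.44 ± 1.38), the latter at 1.02 CPM at 3 months and 717 CPM at 21 months, and by Wfdc5 (5.14 ± 1.11). Of the WAP genes outside the locus, 0 of 5 tested were called there. Of the Kunitz genes outside it, 1 of 7 was, Spint1, an inhibitor of hepatocyte growth factor activator, which was lower (-0.37 ± 0.08, adjusted p = 0.00811). Ltf was higher in the vas deferens with age (1.94 ± 0.41, adjusted p = 0.00887).

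Among 10 serine proteases tested in the vas deferens, Hgfac was higher (0.63 ± 0.10), and Tmprss2, which is regulated by androgens, and the urokinase gene Plau were lower (-0.79 ± 0.10 and -0.54 ± 0.16). In the corpus 2 of 12 were higher, the mast cell and neutrophil protease Ctsg (2.64 ± 0.46, adjusted p = 0.00428) and Plau (0.85 ± 0.13, adjusted p = 0.00206). In the caput Wfdc6a was the 1 called of 7 other locus genes (1.09 ± 0.21, adjusted p = 0.00902) and Clu was lower (-0.55 ± 0.14, adjusted p = 0.0332).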

How the data were processed

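RNA from 7 regions of the reproductive tract of C57BL/6 males aged 3 and 21 months was sequenced as stranded total RNA libraries, 4 a group. The authors trimmed reads with cutadapt, aligned them to the mouse genome with HISAT2 and counted them per gene with HTSeq, and the deposited table holds raw whole-number counts for 53379 genes. Their versions, annotation release, strand setting and treatment of reads that map to several genes are not given in the sources used here, and 0 columns lacked a sample. Symbols and exon lengths were taken from the annotation by gene ID, with a symbol for 53274 genes.

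Counts were fitted in R 4.3.3 with edgeR 4.0.16 (TMM, quasi-likelihood F test) over genes with at least 10 counts in total. The ages were compared within each region, the regions in 1 fit of the 28 libraries of 3 months, and the interaction of age and region in 1 fit of 56 libraries. P-values were two-sided and adjusted by Benjamini-Hochberg over all genes tested, with a threshold of 0.05, and the SE is the log2 difference divided by the square root of F. CPM used the TMM sizes of the 56 libraries. Where a group held 3 counts or fewer, the floor was 3 counts over its 4 libraries, which covers counting error only. The depth per library was 11125279 to 20561967 counts. The fits were tested on simulated counts.

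All 10 members are named, and from each other fixed list the called genes with the largest log2 difference, at most 3 a comparison. The members and lists were chosen with earlier results of these data known. Replicates come from separate mice per the methods, but the labels name no batch, so p-values measure the spread between these libraries. A replicate number is not stated to mark 1 mouse. DESeq2 1.42.0, other scalings, filters and left-out libraries were tried as alternatives. One gene of the fixed lists is not reported here.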

Additional observations from a re-analysis of the deposited data

Results flagged for a closer look

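In 16 of 103 groups of 4 libraries in which a member had a mean of at least 1 CPM, 1 library lay far from the other 3 by Dixon's gap test, a pattern that chance gives in about 1 in 20 groups. Over all genes at that level it was seen in 6.7% of 241524 groups, and in 14.1% in the 3-month cauda and 5.36% in the 21-month corpus. In the 3-month cauda, library 3 was low for Wfdc8 (411 CPM, the others 687 to 719), Wfdc10 (388 CPM, the others 709 to 767) and Wfdc16 (427 CPM, the others 655 to 684), and library 2 was low for Wfdc13 (21.0 CPM). In the initial segment, the 3-month library 4 was high for Wfdc2 (9.60 CPM) and Wfdc9 (6.29 CPM), the 3-month library 2 was low for Spint3 (2.06 CPM) and the 21-month library 3 was high for it (5.01 CPM). In the caput, the 3-month library 1 was high for Wfdc16 (46.9 CPM) and Spint3 (9.01 CPM), the 21-month library 2 was high for Wfdc2 (7.11 CPM) and the 21-month library 4 was low for Wfdc9 (65.5 CPM). In the corpus, the 21-month library 1 was high for Wfdc16 (1097 CPM), Eppin (326 CPM) and Spint4 (98.2 CPM), and the 3-month library 3 was low for Wfdc16 (1152 CPM).

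The age difference differed among the 7 regions for 7 of 10 members in edgeR's interaction test, which 20.2% of all genes passed. Without the libraries numbered 4 it passed for 2 members, and without the 21-month vas deferens libraries 3 and 4 for 3. The adjusted p was 4.60e-07 for Wfdc10, 1.12e-04 for Wfdc8, 3.49e-04 for Wfdc15b, 0.00129 for Eppin, 0.00196 for Wfdc9, 0.00349 for Wfdc16 and 0.0275 for Spint3.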

How the results depend on the processing

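No result of the members reversed its direction in the alternatives run. For single members 178 of 201 alternatives and 96 of 148 fits that left out 1 library kept the call. The numbers of members called for age moved as follows, and the cause was not tested. The shares of all genes that passed under each alternative are not given here. The counts of members can therefore not be set against them. In the testis 1 member passed at an unadjusted p under 0.05 with a 1.5-fold difference, against 0. In the efferent ductules (2 called) 1 passed with all 56 libraries in 1 fit, and 4 at the unadjusted rule. In the initial segment (1 called) 0 passed in the 56-library fit or with no filter. In the caput (1 called) 2 passed in the 56-library fit, 2 with DESeq2, 4 with library size alone, 3 with no filter and 3 at the unadjusted rule. In the corpus (2 called) 0 passed in the 56-library fit, 1 with DESeq2 size factors, 0 with library size alone, 4 with no filter, 0 at the unadjusted rule and 1 without Gm42418. Library size alone shifted the median of all genes by 0.19 for the caput, -0.17 for the corpus and -0.38 for the efferent ductules.

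With the replicate block 4 members passed for the caput, 4 for the corpus, 1 for the efferent ductules and 0 for the initial segment, and the counts of the other regions stayed within 1.5 times. The numbers were not shown to pair the samples: same-numbered deviations correlated above 0.1 throughout in 1 of 42 pairs of regions and 0 of 7 pairs of ages. That pair of regions was the corpus and cauda at 3 months (0.121 to 0.224), which the main fit compared without a block.

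In the vas deferens 5 of 9 members passed without the 21-month libraries 3 and 4, and 3 of 7 passed the interaction test. Leaving out 1 library gave 0 to 0 calls for testis and cauda, 5 to 9 for the vas deferens, 0 to 5 for the caput and 0 to 2 for each other region. Between regions it gave 6 to 7, 8 to 8, 7 to 8, 8 to 8, 9 to 9 and 8 to 9 calls from testis to vas deferens, 38 to 42 separated rank pairs and 2 to 7 interaction calls. Requiring a 4-fold difference left 5 of 8 calls at the efferent ductule to initial segment border, 4 of 8 to the caput, 5 of 8 to the corpus and 3 of 9 to the cauda. Of the 30 most alike genes, 14 remained with a pseudocount of 0.1, 7 with Spearman's correlation and 18 over 14 group means. Depth limits Wfdc2, Wfdc13 and Spint3 in the vas deferens and Spint4 outside caput and corpus, where groups held few counts. It also limits Wfdc10 in the 3-month efferent ductules (27 counts over 4 libraries) and Eppin in the 3-month vas deferens (64 counts). The same holds for Wfdc9, Wfdc13 and Spint3 in the testis and efferent ductules.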
